A study of Mus musculus with 10 samples.

Results

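The genes described here are 10 members of the TNF ligand superfamily, Tnfsf8, Tnfsf4, Tnfsf10, Tnfsf11, Tnfsf14, Cd40lg, Tnf, Lta, Ltb and Fasl. They were picked by gene symbol from the 55809 gene rows of the count files. The rule names them by symbol and uses no measured value, but it was proposed with earlier results of these data known, so their share of calls is a description. All 10 had a row, and all 10 passed the count filter (a mean count of at least 10) that left 16363 genes for testing. Their transcripts were compared in regulatory T (Treg) cells from the spleen and lymph nodes of mice in which Foxp3 protein was degraded or kept. Every mouse carried Foxp3-AID, a modified endogenous Foxp3 allele whose protein carries an auxin-inducible degron, with ZsGreen and Cre recombinase expressed from the same locus. In the R26-TIR1(F74G) group (6 libraries) the ROSA26 locus also carried TIR1(F74G), a mutated plant E3 ligase, and mCherry behind a stop cassette that this Cre removes, so that the ligase is made only in cells that express, or whose precursors expressed, the Foxp3 allele. The R26-WT group (4 libraries) had an unmodified ROSA26 locus. Both groups received 5-ph-IAA, the auxin analog that brings the ligase to the degron, for 14 days, so Foxp3 protein is targeted in the R26-TIR1(F74G) group only. The groups also differ in TIR1(F74G) and mCherry themselves, and no library came from untreated mice. Effects of these proteins cannot be told apart from those of the degradation. In its single-cell data the study removed genes that differed between the genotypes before treatment. The file headers name a folder of male mice, and the labels give no age. Foxp3 is on the X chromosome, so a male carries only the modified allele. For several other Treg profiles the study used heterozygous females, to avoid possible effects of mildly raised inflammation in males after degradation. Such effects cannot be told apart here from those within the Treg cells. The study asks how far Treg cells depend on Foxp3 protein once they are mature, and its text names Tnfsf8 among the genes that it followed after degradation.

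Most TNF ligands are made as membrane proteins, many of which can be cleaved into soluble form. TNF ligands bind as trimers to receptors of the TNF receptor superfamily. The receptors signal through TRAF adaptors to NF-κB and MAP kinases, or through death domains to caspases. Activated T cells use these ligands to costimulate other T cells, to license B cells and dendritic cells, to organize lymphoid tissue and to kill target cells. Treg cells themselves carry several of the receptors at high levels.

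Libraries held 24158699 to 54795718 counted read pairs, with the lowest total in R26-TIR1(F74G) replicate 8. The 7 genes of the Treg marker list (Foxp3, Il2ra, Ctla4, Ikzf2, Lrrc32, Cd4 and Cd3e) were detected in all libraries, with summed normalized counts of 124181 to 153129 in R26-WT and 125218 to 153340 in R26-TIR1(F74G). Cd3e made up 34.3% of the sum, and Cd3e and Cd4 are also made by other T cells, so the sum does not measure Treg identity. The Foxp3 transcript ranged from 6816 to 11779 normalized counts in R26-WT and from 6778 to 16059 in R26-TIR1(F74G) (log2 fold change 0.07, SE 0.25, and −0.21 without R26-WT replicates 3 and 4, named below), which is no check of the degradation because the degron acts on the protein, and other annotated genes overlap 31.5% of its exon bases. Of the genes that mark other blood cells, Cd14, Ncr1, Pf4 and Ppbp were at 0 in every library and Ms4a1 and Pax5 under 5 normalized counts. Others were counted, among them the B cell genes Cd79a (145.1 to 271.0) and Cd79b (525.0 to 1091), Cd8b1 (1076 to 1812) and the platelet gene Itga2b (18.3 to 41.5). Cd8a, whose product pairs with that of Cd8b1 in CD8 T cells, had 0 to 41 raw counts and the NK cell gene Klrd1 6 to 30. The NK cell gene Klrb1c reached 46.5 normalized counts, and the myeloid genes Itgam and Lyz2 reached 33.3 and 26.7. The libraries R26-WT replicates 3 and 4 stood apart at one end of the first axis of variance among the 500 most variable genes (scores 16.8 and 15.5), R26-TIR1(F74G) replicate 7 at the other (−24.6), and the other 7 libraries lay between −9.1 and 6.9. The study's general sorting scheme uses ZsGreen, and mCherry as well for cells with TIR1. If it was used here, the sort gate and the genotype cannot be told apart.

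The 10 ligand transcripts covered a wide range of levels, which are compared here per length as TPM (counts divided by exon length and scaled to the same sum in each library). Ltb, which encodes the membrane-anchored lymphotoxin β chain, was the highest in all 10 libraries. Its level was 3920 ± 645 TPM in R26-WT (SD, n = 4) and 3175 ± 390 TPM in R26-TIR1(F74G) (SD, n = 6), between 76.2% and 84.4% of the summed TPM of the 10 genes. Lta, the soluble lymphotoxin α that pairs with Ltb, came next with 374 ± 88.2 and 325 ± 25.8 TPM. In R26-WT the order went on with Cd40lg, Tnf, Tnfsf8, Tnfsf11, Fasl, Tnfsf10, Tnfsf14 and Tnfsf4. The ranges of Cd40lg and Tnf, of Tnf and Tnfsf8, of Fasl and Tnfsf10, and of Tnfsf14 and Tnfsf4 overlapped among the R26-WT libraries. Within single libraries Cd40lg was above Tnf, and Tnf above Tnfsf8, in 3 of 4, while Fasl was above Tnfsf10 and Tnfsf14 above Tnfsf4 in 4 of 4 despite the overlap. In R26-TIR1(F74G) the order was the same except that Tnfsf8 moved from place 5 to place 3. Its level was 83.6 ± 25.1 TPM in R26-WT (SD, n = 4) and 152 ± 18.5 TPM in R26-TIR1(F74G) (SD, n = 6), where its range overlapped that of Cd40lg, whose mean was 128 TPM, and it was above Cd40lg in 5 of 6 libraries. At the lower end Tnfsf4 had 3.50 ± 0.715 TPM in R26-WT and 5.78 ± 0.875 TPM in R26-TIR1(F74G). In R26-TIR1(F74G) the ranges of Cd40lg and Tnf, and of each neighbouring pair among Fasl, Tnfsf10, Tnfsf14 and Tnfsf4, also overlapped. Within single libraries Cd40lg was above Tnf in 6 of 6, and each of the others above its neighbour in 5 of 6.

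**Figure D1:**
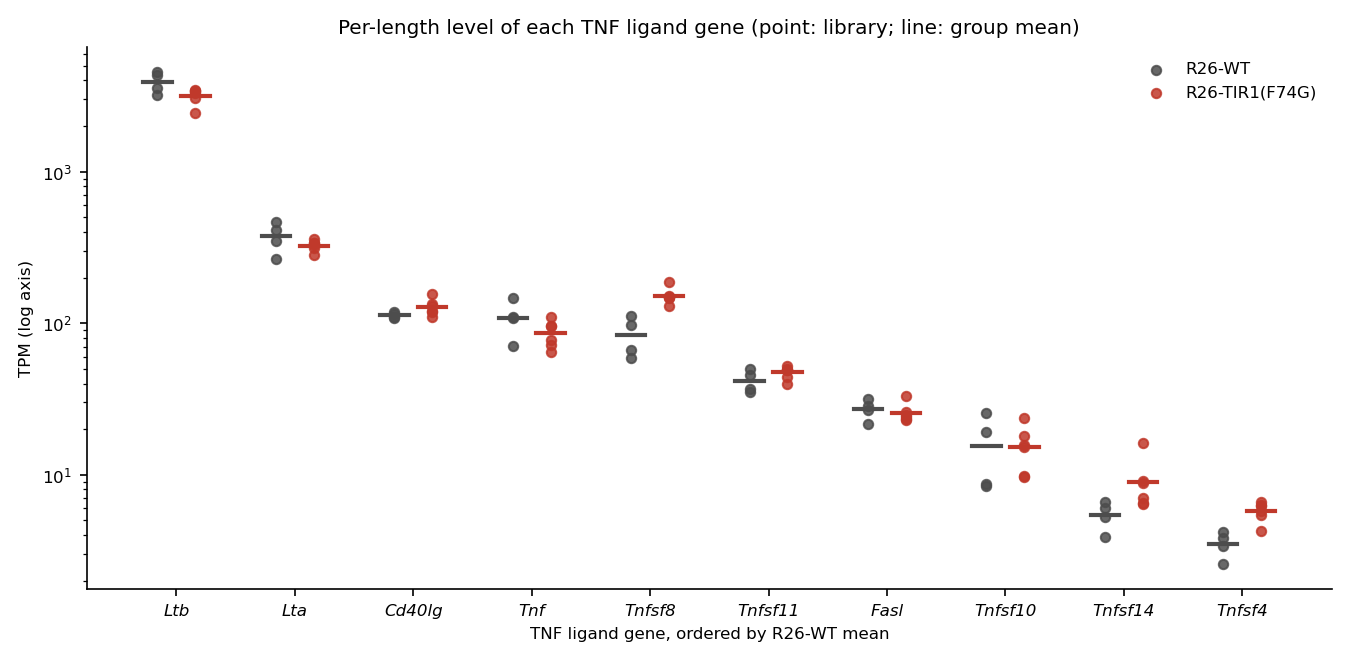
Level of each TNF ligand gene in TPM (log axis), with a point for each library, R26-WT in grey and R26-TIR1(F74G) in red, and a line at each group mean. Ltb lies about 10-fold above the next gene, and the red Tnfsf8 points all lie above the grey ones.

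Of the 10 ligand genes, 2 rose in R26-TIR1(F74G), Tnfsf8 and Tnfsf4, and none fell (DESeq2, Benjamini-Hochberg adjusted p under 0.05, genotype as the only term). Over all 16363 tested genes the same test called 284, or 1.74%, of which 229 (1.40%) were higher. The edgeR quasi-likelihood test called only Tnfsf8 among the 10, and 61 genes (0.373%) over the whole table. The log2 fold changes of the 10 genes had a median of 0.04 and ran from −0.42 to 0.82, against a median of 0.001 over all tested genes and a 5th to 95th percentile range of −0.43 to 0.56. The ranges of normalized counts in the groups were separate for 1 of the 10, Tnfsf8, as they were for 2.37% of all tested genes. The libraries are bulk RNA, in which more cells with a transcript and more transcript per cell cannot be told apart. The labels do not say that each library came from a separate mouse, so p-values measure the spread between these libraries.

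**Figure D2:**
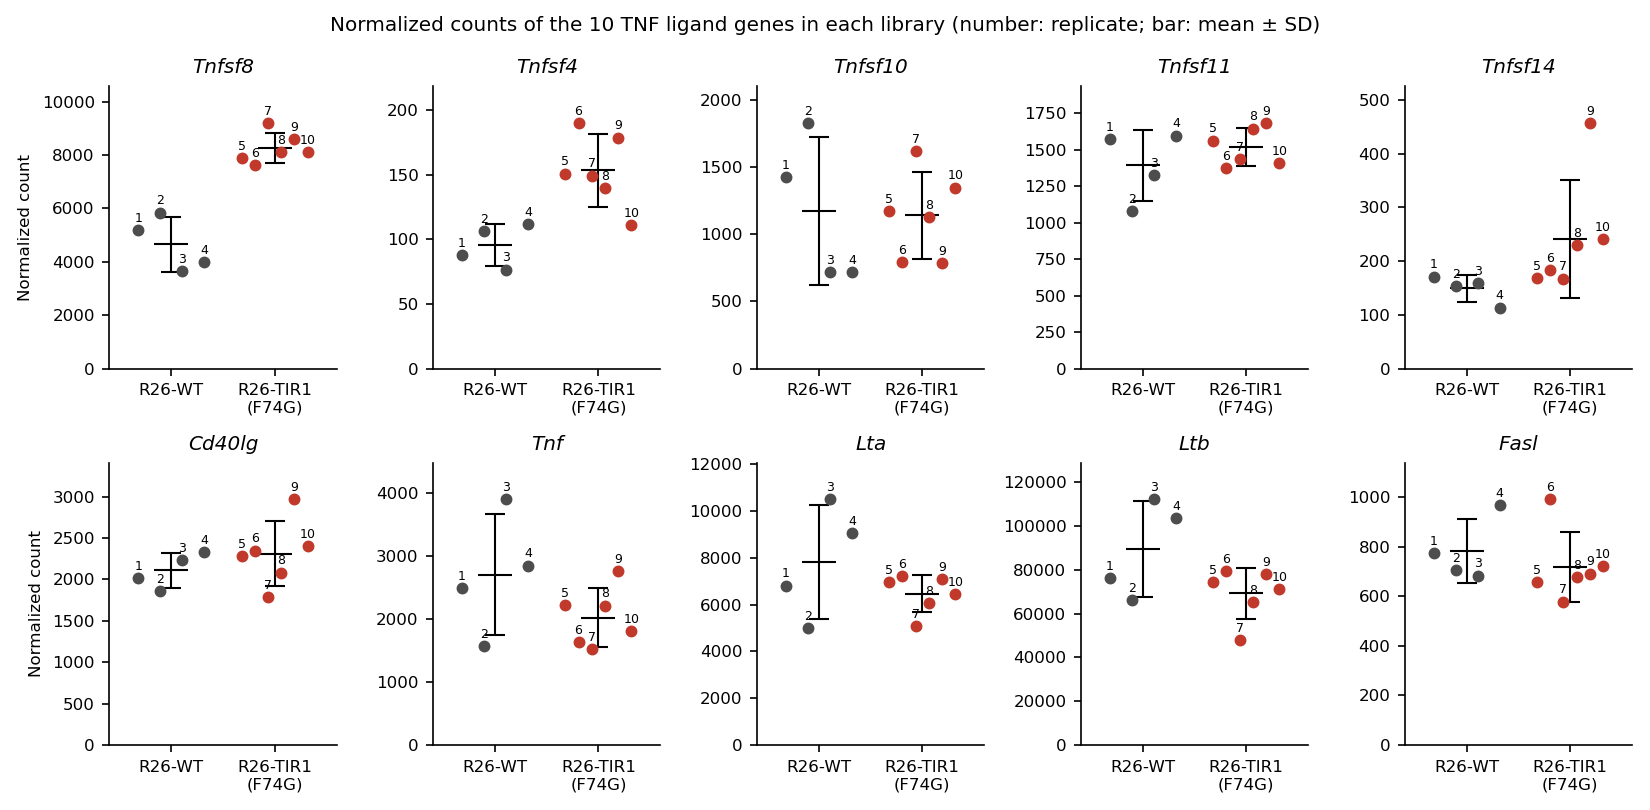
Normalized counts (raw counts divided by DESeq2 size factors) of the 10 ligand genes in each library. Each numbered point is a replicate, and the black bar gives the mean ± SD. For Tnfsf8 the 6 R26-TIR1(F74G) points, from 7620 to 9204, lie above the 4 R26-WT points, from 3635 to 5837, whereas the groups overlap for the other 9 genes.

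Tnfsf8 encodes CD153, the ligand of CD30 (Tnfrsf8), and is made by activated T cells. The gene lies on the minus strand of chromosome 4, at chr4:63749545-63779584 (GRCm39), with 4 annotated exons, and no other annotated gene shares its exons. The 300 bases before its annotated start are shown because Tnfsf8 was the member called by both tests. Capitals mark a match to the STAT-type motif TTCNNNGAA, 228 to 220 bases before the start, and a match on the opposite strand to the NFAT core TGGAAA, 210 to 205 bases before it (chr4:63779593-63779892, minus strand, GRCm39).

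Tnfsf8: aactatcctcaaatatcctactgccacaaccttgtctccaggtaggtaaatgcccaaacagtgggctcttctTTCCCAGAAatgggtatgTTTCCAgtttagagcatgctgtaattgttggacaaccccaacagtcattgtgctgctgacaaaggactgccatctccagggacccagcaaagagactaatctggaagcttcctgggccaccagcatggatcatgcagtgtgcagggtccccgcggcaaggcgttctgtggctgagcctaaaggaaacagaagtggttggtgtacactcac

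These motifs are common. Of 300-base windows before the starts of 11443 tested protein-coding genes, 8.06% hold TTCNNNGAA and 20.8% hold TGGAAA on either strand. The forkhead motif TGTTTAC, which 3.08% of the windows hold, the κB core GGANNTTCC (4.73%), the AP-1 motif TGANTCA (5.51%) and TATAAA (8.92%) are not in the Tnfsf8 window.

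The R26-WT libraries had 5190, 5837, 3635 and 3987 normalized Tnfsf8 counts (replicates 1 to 4). The R26-TIR1(F74G) libraries had a lowest value of 7620 (replicate 6), a median of 8098 and a highest value of 9204 (replicate 7). Every R26-TIR1(F74G) library lay above every R26-WT library, and the R26-WT libraries were the more scattered, with a coefficient of variation of 22.1% against 6.85%. The means were 4662 ± 1028 (SD, n = 4) and 8249 ± 565 (SD, n = 6), a 1.77-fold difference with a 95% interval of 1.45 to 2.16. The log2 fold change was 0.82 (SE 0.15, adjusted p = 8.07e-06 by DESeq2). The edgeR quasi-likelihood test gave 0.82 with an adjusted p of 0.0189.

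The lower Tnfsf8 values in R26-WT came from replicates 3 and 4, the libraries that stood apart on the first axis of variance, and the highest R26-TIR1(F74G) value came from replicate 7 at the other end of that axis. Without R26-WT replicates 3 and 4 the log2 fold change was 0.585 (SE 0.12, adjusted p = 0.000543 by DESeq2), and without R26-TIR1(F74G) replicate 7 as well it was 0.549 (SE 0.10, adjusted p = 4.31e-05 by DESeq2). The edgeR adjusted p-values of these fits were 0.133 and 0.0641. Removing each library's trend on gene length, or adding 1 surrogate variable to the model, gave log2 fold changes of 0.79 in both cases with smaller DESeq2 adjusted p-values (6.08e-08 and 1.23e-18). These fits also called more genes over the whole table, 384 and 743 against 284, so their smaller p-values are not particular to Tnfsf8. In the 10 DESeq2 fits that each left out a library, the log2 fold change of Tnfsf8 stayed between 0.72 and 0.95 and was called in all 10. The edgeR call was lost without R26-WT replicate 1 (adjusted p = 0.0726), 3 (0.0509) or 4 (0.0859) and without R26-TIR1(F74G) replicate 8 (0.0544).

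Tnfrsf8, the receptor of Tnfsf8, was barely detected, at 4.88 to 43.3 normalized counts in R26-WT and 5.41 to 38.9 in R26-TIR1(F74G). The log2 fold change was −0.20 with a 95% interval of −1.41 to 1.02, which covers a change as large as its ligand's in either direction. The value rested on R26-WT replicates 3 and 4, which had 4.88 and 10.99 normalized counts where replicates 1 and 2 had 35.8 and 43.3. Without them the log2 fold change of Tnfrsf8 was −0.94 (SE 0.62, adjusted p = 0.901 by DESeq2), and without R26-TIR1(F74G) replicate 7 as well it was −1.24 (SE 0.60). Tnfsf15, the superfamily gene nearest to Tnfsf8, lies 86195 bases away on chromosome 4. It had 0 to 23 raw counts per library and did not pass the count filter.

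The genes most like Tnfsf8 across the 10 libraries, after the mean of each group was taken out, were Agfg1, Aebp2, Dusp11, Luc7l and Gna13, with Pearson correlations of 0.983, 0.975, 0.973, 0.963 and 0.957 on log2(normalized count + 1). These were the highest of 11221 other genes with a gene symbol and a mean normalized count of at least 100. The measure follows differences between libraries of one group, such as those of R26-WT replicates 3 and 4, and not the difference between the groups. None of the 5 genes was called, and their log2 fold changes ran from −0.05 to 0.26.

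Tnfsf4 encodes OX40 ligand, which binds OX40 (Tnfrsf4), a costimulatory receptor abundant on Treg cells. The gene lies on the plus strand at chr1:161222980-161245981 (GRCm39), with no exon shared with another gene. Tnfsf4 was the lowest of the 10 genes per length. The R26-WT libraries had 87.6, 106.3, 76.5 and 111.6 normalized counts. The R26-TIR1(F74G) libraries had a lowest value of 111.1 (replicate 10), a median of 149.9 and a highest value of 190.0 (replicate 6). Of the 6, 5 lay above every R26-WT library, and replicate 10 fell just below R26-WT replicate 4. The fold change was 1.61 (95% interval 1.22 to 2.11), a log2 fold change of 0.68 (SE 0.20, adjusted p = 0.0398 by DESeq2). The edgeR quasi-likelihood test did not call Tnfsf4 (adjusted p = 0.245), nor did limma voom (0.396). The DESeq2 call was lost when R26-WT replicate 1 or 3 or any of R26-TIR1(F74G) replicates 5 to 9 was left out, and over the 10 such fits the log2 fold change stayed between 0.59 and 0.77.

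Tnfrsf4 itself was abundant, at 14090 to 22528 normalized counts in R26-WT and 11570 to 16841 in R26-TIR1(F74G). Its log2 fold change of −0.35 (SE 0.16) was not called (adjusted p = 0.583 by DESeq2). It was called with 1 surrogate variable in the model (−0.26, adjusted p = 0.0349), but the log2 fold change of Tnfrsf4 was −0.10 without R26-WT replicates 3 and 4 (adjusted p = 0.918) and −0.064 without R26-TIR1(F74G) replicate 7 as well. Tnfsf18, which encodes the GITR ligand and lies 76243 bases from Tnfsf4 on chromosome 1, had 0 to 7 raw counts, and Fasl, 362277 bases from Tnfsf4, did not pass the test (below).

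Of the other 8 ligand genes, Tnfsf14 had the largest log2 fold change. Tnfsf14 encodes LIGHT, which binds HVEM (Tnfrsf14) and the lymphotoxin β receptor. It had 171.2, 153.5, 158.7 and 113.3 normalized counts in R26-WT. In R26-TIR1(F74G) the lowest value was 167.6, the median 206.4 and the highest 457.5. Replicate 9 alone held the highest value, the other 5 libraries lay between 167.6 and 240.5, and 4 of the 6 were above every R26-WT library. The log2 fold change of 0.69 (SE 0.29, 95% interval 0.13 to 1.26) did not pass the test (adjusted p = 0.391 by DESeq2), and it was 0.41 without replicate 9. Tnfrsf14 had a log2 fold change of 0.20 (SE 0.14), or 0.33 without R26-WT replicates 3 and 4, and Ltbr, which encodes the lymphotoxin β receptor, had 0 to 5 raw counts per library.

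Lta, Tnf and Ltb lie side by side on chromosome 17, with 1158 bases between Tnf and Lta and 3061 between Tnf and Ltb, and Ltb runs on the opposite strand from Tnf and Lta. Tnf encodes the inflammatory cytokine TNF, which binds Tnfrsf1a and Tnfrsf1b. The 3 genes are at chr17:35422141-35424327 (Lta, minus strand), chr17:35418357-35420983 (Tnf, minus strand) and chr17:35413415-35415296 (Ltb, plus strand) in GRCm39. The 300 bases before each start are shown because the 3 transcripts shared their highest library. Capitals mark matches to the motifs given above on either strand.

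Tnf: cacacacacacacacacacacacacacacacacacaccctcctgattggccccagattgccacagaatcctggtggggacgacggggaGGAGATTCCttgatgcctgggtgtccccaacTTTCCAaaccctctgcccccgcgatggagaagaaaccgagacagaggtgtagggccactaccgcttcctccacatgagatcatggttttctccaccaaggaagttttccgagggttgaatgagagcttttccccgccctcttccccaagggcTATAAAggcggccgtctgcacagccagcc
Lta: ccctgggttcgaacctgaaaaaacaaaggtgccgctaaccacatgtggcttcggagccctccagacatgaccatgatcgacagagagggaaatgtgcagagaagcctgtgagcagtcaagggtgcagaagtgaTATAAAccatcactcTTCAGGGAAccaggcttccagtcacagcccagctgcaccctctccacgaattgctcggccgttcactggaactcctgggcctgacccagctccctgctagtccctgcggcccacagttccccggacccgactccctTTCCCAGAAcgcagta
Ltb: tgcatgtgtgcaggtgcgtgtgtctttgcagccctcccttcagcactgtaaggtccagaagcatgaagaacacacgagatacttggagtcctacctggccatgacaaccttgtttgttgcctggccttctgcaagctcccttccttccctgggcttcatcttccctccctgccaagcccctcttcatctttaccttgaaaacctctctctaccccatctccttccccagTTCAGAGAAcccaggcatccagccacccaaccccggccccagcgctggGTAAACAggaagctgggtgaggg

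The Tnf window (chr17:35420984-35421283, minus strand) holds the κB core 212 to 204 bases before the start, an NFAT core, and TATAAA 29 to 24 bases before the start. The Lta window (chr17:35424328-35424627, minus strand) holds TATAAA and the STAT-type motif at 2 places. The Ltb window (chr17:35413082-35413381, plus strand) holds the STAT-type motif and, 23 to 17 bases before the start on the opposite strand, the forkhead motif.

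Tnf had 2499, 1576, 3906 and 2851 normalized counts in R26-WT, and from 1523 to 2761 with a median of 2012 in R26-TIR1(F74G). Lta had 6807, 4983, 10494 and 9036 in R26-WT, and from 5079 to 7200 with a median of 6702 in R26-TIR1(F74G). Ltb had 76351, 66188, 112283 and 103666 in R26-WT, and from 47967 to 79540 with a median of 72731 in R26-TIR1(F74G). For all 3 genes R26-WT replicate 3 was the highest of the 10 libraries and replicate 4 the next, and for Tnf and Ltb R26-TIR1(F74G) replicate 7 was the lowest. The groups overlapped for each gene.

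The log2 fold changes were −0.42 for Tnf (SE 0.24), −0.28 for Lta (SE 0.20) and −0.37 for Ltb (SE 0.19), and none was called (the lowest DESeq2 adjusted p was 0.746, for Ltb). These values rested on R26-WT replicates 3 and 4. Without them the log2 fold changes were −0.004 for Tnf, 0.14 for Lta and −0.03 for Ltb. With 1 surrogate variable in the model Ltb was called, with a log2 fold change of −0.24 (SE 0.063, adjusted p = 0.00478 by DESeq2), in a fit that called 743 genes over the whole table. The receptors Tnfrsf1a and Tnfrsf1b had log2 fold changes of −0.26 (SE 0.15) and 0.02 (SE 0.26), which without R26-WT replicates 3 and 4 became −0.073 and −0.39. Without R26-WT replicates 3 and 4 and R26-TIR1(F74G) replicate 7 the value of Tnfrsf1b was −0.53 (SE 0.17, adjusted p = 0.0468 by DESeq2).

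Cd40lg encodes CD40 ligand, the signal by which helper T cells license B cells and dendritic cells. It had 2015, 1859, 2236 and 2328 normalized counts in R26-WT and from 1785 to 2968, with a median of 2314, in R26-TIR1(F74G). The groups overlapped, and the log2 fold change of 0.13 had a 95% interval of −0.16 to 0.42. It was 0.26 without R26-WT replicates 3 and 4. Its receptor Cd40, a gene of B cells and other antigen-presenting cells, had 7 to 45 raw counts per library.

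Fasl and Tnfsf10 encode the death ligands Fas ligand and TRAIL. Fasl had 774.0, 704.5, 683.6 and 967.4 normalized counts in R26-WT and from 577.7 to 991.0, with a median of 684.3, in R26-TIR1(F74G), where replicate 6 held the highest value. Tnfsf10 had 1428, 1831, 717.8 and 717.9 normalized counts in R26-WT, so that replicates 3 and 4 lay well under replicates 1 and 2, and from 783.0 to 1621 in R26-TIR1(F74G). The groups overlapped for both genes. The log2 fold changes were −0.12 for Fasl (95% interval −0.46 to 0.22) and −0.04 for Tnfsf10 (95% interval −0.62 to 0.54), and neither was called. That of Fasl was −0.035 without R26-WT replicates 3 and 4.

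The Tnfsf10 difference depended on the libraries used. Without R26-WT replicates 3 and 4 its log2 fold change was −0.51 (SE 0.28, adjusted p = 0.821 by DESeq2), and without R26-TIR1(F74G) replicate 7 as well it was −0.64 (SE 0.22, adjusted p = 0.0659 by DESeq2). Its sign turned in limma voom (0.19), and in the fits that each left out 1 library the value lay between −0.22 and 0.26. Fas, the receptor of Fasl, had 3057 to 5060 normalized counts over all libraries and a log2 fold change of −0.20 (SE 0.16), or −0.066 without R26-WT replicates 3 and 4. Of the TRAIL receptors, Tnfrsf10b had a log2 fold change of −0.23 (SE 0.19), and the decoys Tnfrsf22 and Tnfrsf23 had 0.08 (SE 0.24) and 0.39 (SE 0.25). The sign of Tnfrsf22 turned without R26-WT replicates 3 and 4 (−0.275).

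Tnfsf11 encodes RANKL, which drives osteoclast formation and the maturation of thymic epithelium and M cells. It had 1572, 1076, 1325 and 1596 normalized counts in R26-WT and from 1371 to 1683, with a median of 1498, in R26-TIR1(F74G). The groups overlapped, and the log2 fold change of 0.12 had a 95% interval of −0.15 to 0.39. It was 0.20 without R26-WT replicates 3 and 4. Its receptor Tnfrsf11a (RANK) had 0 to 14 raw counts and its decoy Tnfrsf11b (osteoprotegerin) 0 to 1, and neither passed the count filter.

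**Figure D3:**
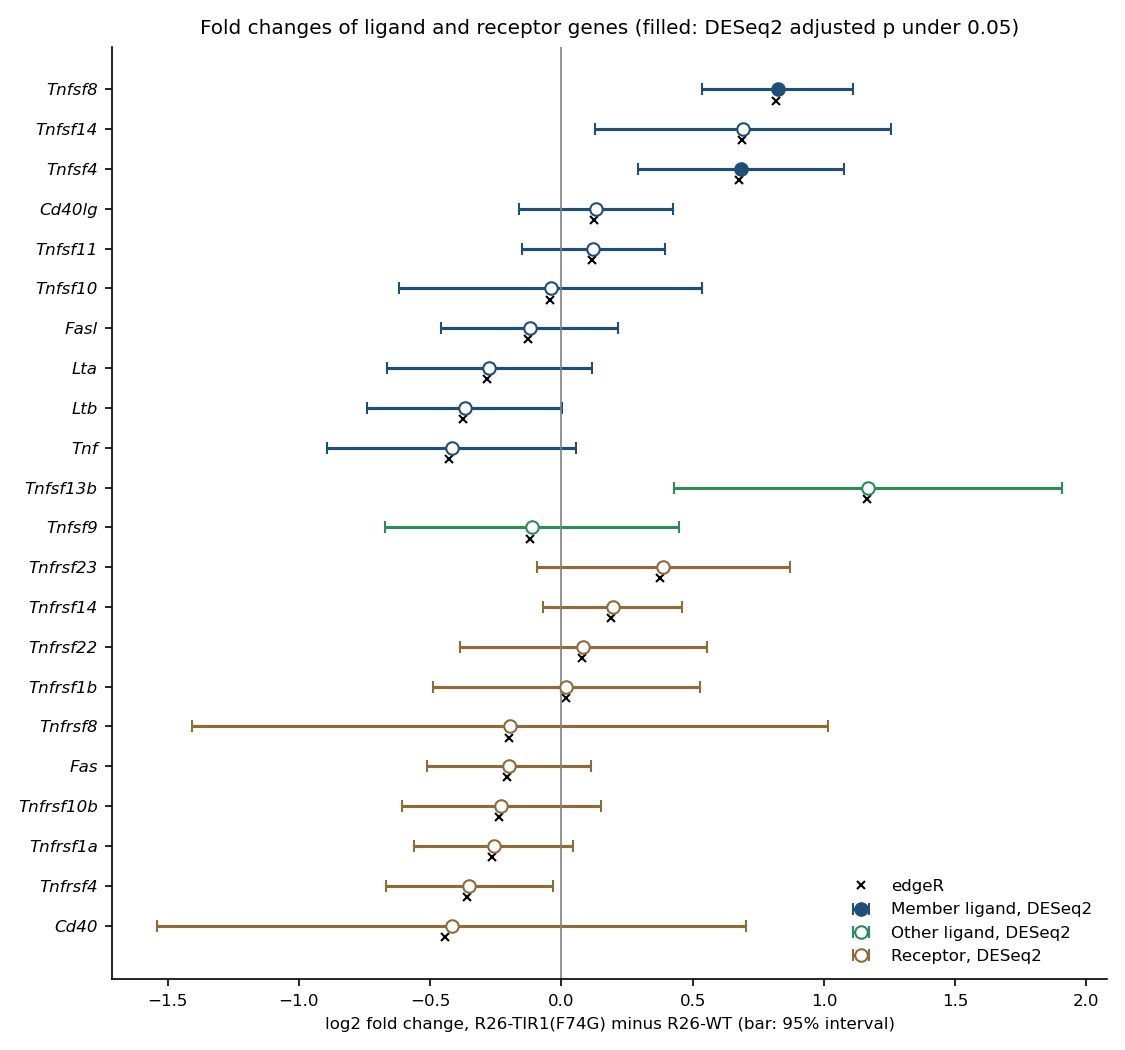
Log2 fold change, R26-TIR1(F74G) minus R26-WT, of the tested ligand genes and the tested receptors of the 10 ligands by DESeq2 with its 95% interval (circles, filled where the adjusted p is under 0.05) and by edgeR (crosses). Only Tnfsf8 and Tnfsf4 are filled. The intervals of Tnfsf14, Tnfsf13b and Tnfrsf4 leave out 0 without passing the adjusted test.

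Of 8 further TNF ligand superfamily genes, 6 were below the count filter. Tnfsf12, Tnfsf13, Tnfsf18, Cd70 and Eda had at most 7 raw counts in any library, and Tnfsf15 at most 23. Tnfsf9, which encodes the 4-1BB ligand, had 135.4 to 209.7 normalized counts in R26-WT and 87.96 to 257.4 in R26-TIR1(F74G), with a log2 fold change of −0.11 (SE 0.29), or 0.037 without R26-WT replicates 3 and 4. Tnfsf13b encodes BAFF, a survival factor for B cells. It had 38.3 to 59.2 normalized counts in R26-WT and 65.8 to 255.2 in R26-TIR1(F74G), so the groups did not overlap, but its log2 fold change of 1.17 (SE 0.38) did not pass the test (adjusted p = 0.0905 by DESeq2). With 1 surrogate variable in the model Tnfsf13b was called (1.20, adjusted p = 0.0147 by DESeq2). R26-TIR1(F74G) replicate 9 held the highest value of Tnfsf13b, as it did for Tnfsf14, and without it the log2 fold change of Tnfsf13b was 0.735.

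With all libraries and genotype as the only term, DESeq2 called none of the receptors of the 10 ligands and none of the signalling genes listed with them. Tnfrsf9, the receptor of Tnfsf9, was called lower and is described with the activation genes. Of 13 receptors of the 10 ligands, 10 were tested, with 4 log2 fold changes above 0, 6 below and a median of −0.20. Of 15 receptor-proximal signalling genes (TRAF adaptors, RIPK1, caspase-8 and their partners), all were tested, with a median of −0.03. Traf1, an adaptor that several of these receptors recruit, had the lowest value at −0.23 (SE 0.084). Its normalized counts did not overlap, at 16125 to 17321 in R26-WT and 12984 to 15219 in R26-TIR1(F74G), and it was not called (adjusted p = 0.233 by DESeq2) except with 1 surrogate variable (−0.22, adjusted p = 0.00981). The lists of 7 ubiquitin-editing inhibitors (such as Tnfaip3, which encodes A20), 5 tested ligand-shedding proteases and cofactors (such as Adam17) and 7 RNA-binding proteins that control cytokine mRNA decay (such as Zfp36) had medians of 0.06, 0.12 and 0.02 and no call in that fit. Within them the log2 fold changes ran from −0.16 (Otulin) to 0.26 (Tnip2), from 0.02 (Sppl2a) to 0.38 (Rhbdf2) and from −0.30 (Zfp36) to 0.19 (Rc3h1). Rhbdf2, a partner of Adam17, was called with 1 surrogate variable (0.30, adjusted p = 0.0031 by DESeq2), but its value was 0.082 without R26-WT replicates 3 and 4 and 0.006 without R26-TIR1(F74G) replicate 7 as well. The values of Otulin, Tnip2, Zfp36 and Rc3h1 without R26-WT replicates 3 and 4 were 0.045, 0.17, −0.18 and −0.03.

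Genes of T cell activation and division were set beside the ligands, several of which T cells are known to make after activation. Of 10 activation genes, 1 was called, Tnfrsf9, which encodes the costimulatory receptor 4-1BB and fell. Its normalized counts were 7247 to 8610 in R26-WT and 4861 to 6095 in R26-TIR1(F74G), with a log2 fold change of −0.49 (SE 0.11) and an adjusted p of 0.000565 by DESeq2, 0.051 by edgeR and 0.0564 by limma voom. Its DESeq2 call was lost without R26-WT replicates 3 and 4 (−0.45, adjusted p = 0.0734) but not without R26-TIR1(F74G) replicate 7 as well (−0.43, adjusted p = 0.0188). The list had a median of 0.11 and summed to 71583 to 78609 normalized counts in R26-WT and 64963 to 77701 in R26-TIR1(F74G). Of 8 proliferation genes, 6 rose (Mki67, Top2a, Ccna2, Cdk1, Birc5 and Mcm5), with log2 fold changes of 0.66 to 1.70, and edgeR called 3 of them. Their sum was 4961 to 6328 normalized counts in R26-WT and 8070 to 12434 in R26-TIR1(F74G), so it moved with the group as Tnfsf8 did, and its part in the Tnfsf8 difference was not tested. Each fit that left out 1 library called 6 or 7 of the 8. With R26-WT replicates 3 and 4 left out, 2 were called, and without R26-TIR1(F74G) replicate 7 as well, 5. Of 7 Treg markers none was called, with a median of −0.05 and values from −0.31 (Ctla4) to 0.26 (Cd4). Cd4 was called with 1 surrogate variable (0.20, adjusted p = 0.0347 by DESeq2), and its value was 0.009 without R26-WT replicates 3 and 4.

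**Figure D4:**
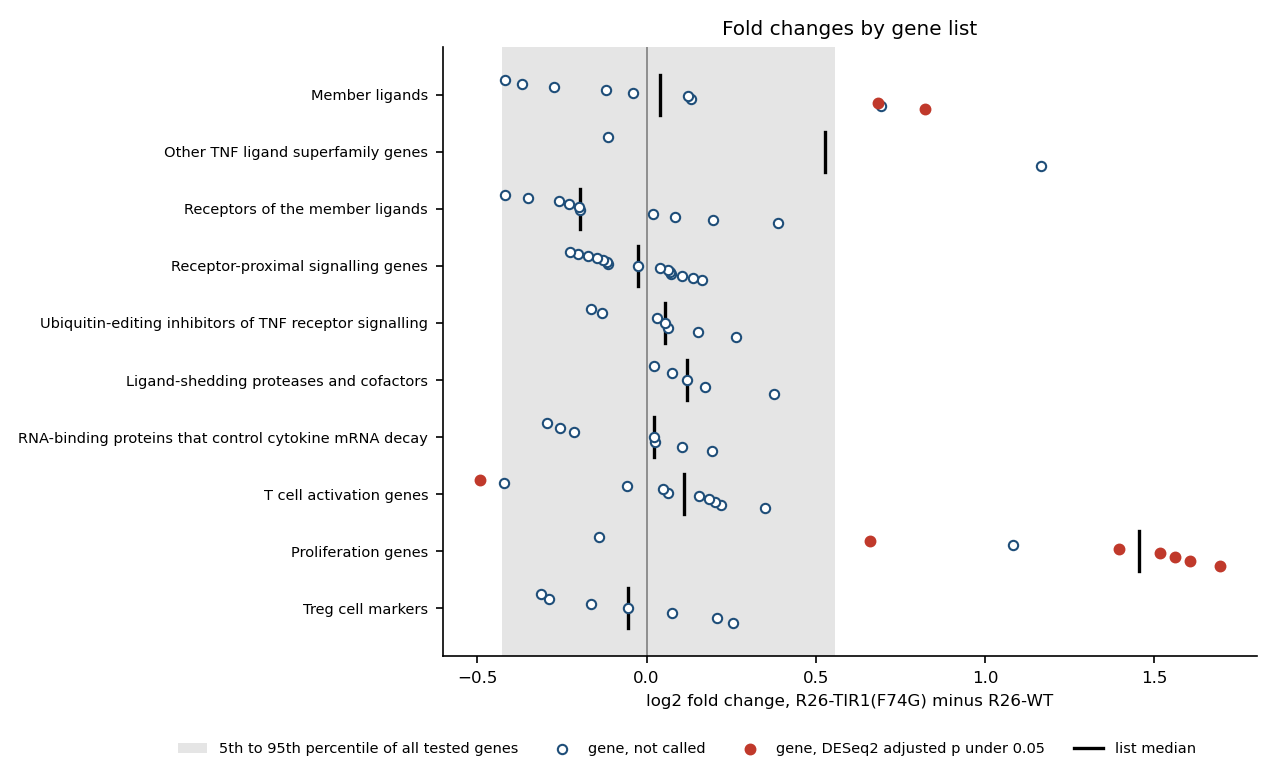
Log2 fold change of each tested gene in 10 gene lists (circles, red and filled where the DESeq2 adjusted p is under 0.05), with the list median as a black line and the 5th to 95th percentile of all tested genes, −0.43 to 0.56, as a grey band. The calls are Tnfsf8 and Tnfsf4 among the ligands, the receptor gene Tnfrsf9 in the activation list and 6 proliferation genes, and the proliferation list lies to the right of the band except for Pcna.

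Of the marker lists for other cells, 1 gene was called, Eomes, a transcription factor of CD8 T and NK cells that some CD4 T cells also express. It had 68.5 to 135.4 normalized counts in R26-WT and 208.7 to 403.6 in R26-TIR1(F74G) (log2 fold change 1.47, SE 0.23, adjusted p = 4.54e-08 by DESeq2). The 6 CD8 T and NK cell markers summed to 1330 to 1948 normalized counts in R26-WT and 1379 to 1753 in R26-TIR1(F74G), with Ncr1 at 0 throughout and Cd8b1 making up 83.8% of the sum. The 4 plasma cell markers summed to 22.8 to 45.4 and 25.7 to 74.3 (Mzb1 at 0) and the 6 myeloid markers to 20.7 to 39.8 and 10.8 to 44.4 (Cd14 at 0). Platelet markers summed to at most 43.95, with Pf4 and Ppbp at 0. The ranges of these sums overlapped between the groups, but those of Eomes did not. Derl3, of the plasma cell list, had 5 of 6 R26-TIR1(F74G) libraries above every R26-WT library (log2 fold change 0.89, SE 0.37, adjusted p = 0.408 by DESeq2). The part of these genes in the ligand differences was not tested.

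**Figure D5:**
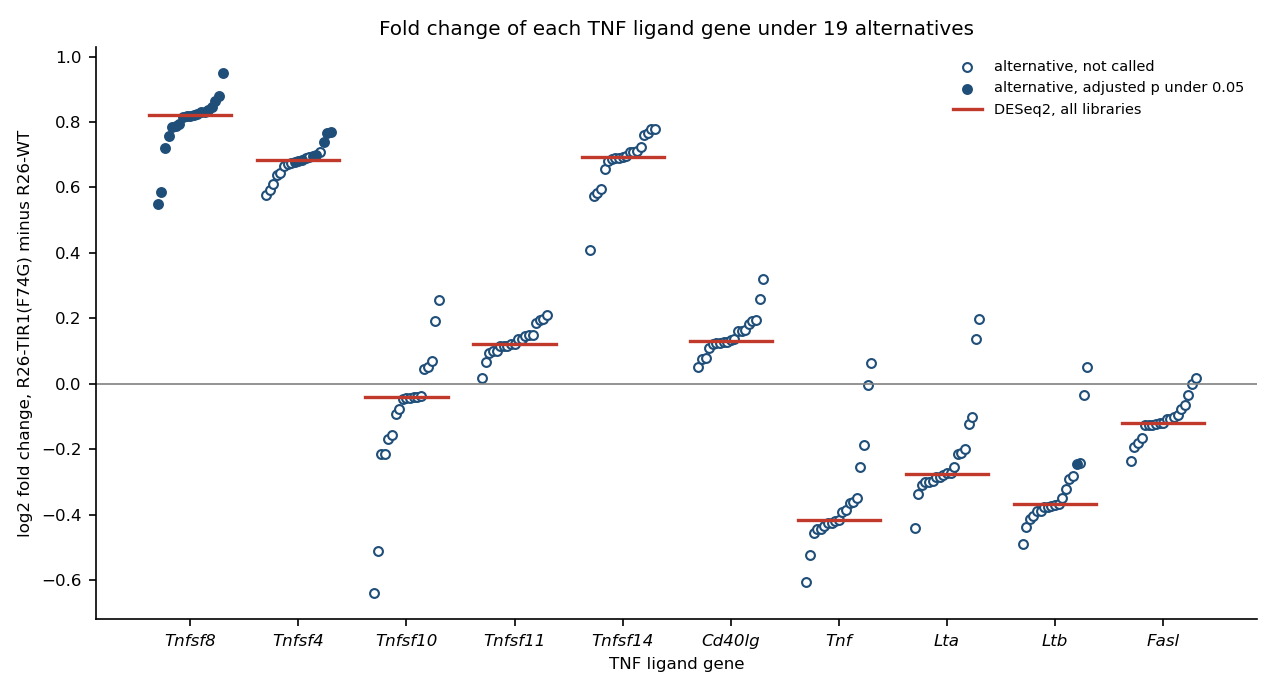
Log2 fold change, R26-TIR1(F74G) minus R26-WT, of each ligand gene with all libraries (red line) and under 19 alternatives (circles, filled where the adjusted p is under 0.05): other tests, scalings, filters and model terms, each library left out, and the libraries at the ends of the first axis of variance left out. Tnfsf8 is filled throughout, Tnfsf4 in 8 of 19, Ltb in 1, and the other genes nowhere.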

How the data were processed

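Treg cells were profiled by bulk RNA-seq in 10 libraries, grouped by the genotype in the labels. The deposited values were raw counts of read pairs per gene name, one file per library. Counting was done by the authors in featureCounts 2.1.1 on the GENCODE M30 annotation (GRCm39) per the file headers, keeping primary alignments with both mates mapped and a mapping quality of at least 30. No strand option was given, so antisense genes cannot be separated. The submitters' processing notes list Bowtie2 where the study's methods name STAR. The cDNA was amplified by PCR with no molecular identifiers named, so counts are not independent molecules. No pair of libraries of one group agreed within sampling noise (chi-square per degree of freedom 10.3 to 239 over 21 pairs). In R26-WT the value was 26.6 for replicates 1 and 2 and 15.3 for replicates 3 and 4. It was 122 to 238 between these pairs, so the R26-WT libraries fell into pairs.

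Differential expression was tested across all 16363 genes whose mean count reached 10, in R 4.3.3 with DESeq2 1.42.0 (~genotype, two-sided Wald test, Benjamini-Hochberg adjusted p under 0.05), the test of the study's methods, and with the edgeR 4.0.16 quasi-likelihood test beside it. Both were tested on simulated data of these group sizes, where a larger share of the DESeq2 calls than of the edgeR calls was false, and a larger one than the threshold allows for, so genes called by DESeq2 alone are less certain. Normalized counts were obtained with the DESeq2 size factors, and TPM was computed from the counts and the exon lengths in the files. Alternatives were limma voom 3.58.1, other scalings and filters, a loess trend on gene length, 1 surrogate variable (sva 3.50.0) and leaving out libraries. The fits without R26-WT replicates 3 and 4 and the edgeR fits that leave out a library were chosen after seeing the data. Promoter windows were read from the GRCm39 genome at the canonical GENCODE M39 starts. The members and gene lists were chosen with earlier results of these data known. Named were all TNF ligand genes, and of each other list the called genes, receptors of a called ligand, and otherwise the genes with the highest and lowest log2 fold change. The receptors of the other ligands, and the markers given by their ranges, were named after their values were seen. No protein sequence was used here, and some promoter windows and cell markers are not reported here.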

Additional observations from a re-analysis of the deposited data

Results flagged for a closer look

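In each group a library was taken to stand apart where its gap to the nearest of the others exceeded Dixon's critical value for the group's range. This was looked for in 84 sets of values (named genes and total counts, each in both groups), of which chance alone flags about 1 in 20, and 5 were found. R26-TIR1(F74G) replicate 9 stood apart for Tnfsf14, with 457.5 normalized counts where the next library had 240.5, and for Tnfsf13b, with 255.2 where the next had 99.8. R26-TIR1(F74G) replicate 6 stood apart for Fasl, with 991.0 where the next had 720.5. R26-TIR1(F74G) replicate 7, which lay at one end of the first axis of variance, stood apart for Traf3, with 4166 where the next had 2510, and for Foxp3, with 16059 where the next had 9851. Tnfsf8 and Tnfsf4, the called ligand genes, had no such library in either group.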

How the results depend on the processing

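Over the 10 ligand genes and 19 alternatives each, 168 of 190 values kept the direction and the side of the threshold, 10 turned in direction, and Tnfsf8 was called in each of its 19, of which 1 was the edgeR fit and 1 the limma voom fit of all libraries and 17 were DESeq2 fits. With edgeR or limma voom 1 of the 10 ligand genes was called in place of 2, as was 1 without R26-WT replicates 3 and 4, with or without R26-TIR1(F74G) replicate 7, and between 1 and 2 when a library was left out, whereas 3 were called with 1 surrogate variable, Ltb being the third. Left-out libraries moved the edgeR log2 fold change of Tnfsf8 between 0.721 and 0.944 with the call lost in 4 of 10 fits, and it was not called without R26-WT replicates 3 and 4 (0.588), nor without R26-TIR1(F74G) replicate 7 as well (0.555). Over the whole table edgeR called 61 genes, limma voom 80 and the model with 1 surrogate variable 743, against 284. Without R26-WT replicates 3 and 4 there were 134 calls, without R26-TIR1(F74G) replicate 7 as well 538, and from 187 (without R26-WT replicate 4) to 346 when 1 library was left out. The cause of these differences was not tested.

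Direction turned for genes that DESeq2 had not called. Limma voom gave 0.193 for Tnfsf10 and 0.159 for Tnfrsf8, and the trend on gene length −0.061 for Sppl2a and −0.01 for Tnfrsf1b. The surrogate variable gave −0.011 for Traf3, −0.035 for Tnfrsf22, −0.098 for Tnfrsf1b and −0.096 for Foxp3. Without R26-WT replicates 3 and 4 the log2 fold changes were 0.138 for Lta, 0.037 for Tnfsf9, 0.768 for Cd40, −0.129 for Traf3, 0.045 for Otulin, −0.03 for Rc3h1, −0.275 for Tnfrsf22, −0.391 for Tnfrsf1b and −0.206 for Foxp3. Without R26-TIR1(F74G) replicate 7 as well they were 0.064 for Tnf, 0.197 for Lta, 0.05 for Ltb, 0.019 for Fasl, 0.161 for Tnfsf9, 0.926 for Cd40, −0.357 for Traf3, 0.102 for Otulin, −0.088 for Rc3h1, −0.029 for Cd4, −0.387 for Tnfrsf22, −0.53 for Tnfrsf1b and −0.429 for Foxp3. With a library left out the ranges crossed 0 for Tnfsf10 (−0.216 to 0.257), Tnfsf9 (−0.299 to 0.014), Tnfrsf8 (−0.537 to 0.261), Cd40 (−0.736 to 0.127), Traf3 (−0.062 to 0.372), Sppl2a (−0.021 to 0.042), Tnfrsf22 (−0.065 to 0.288), Tnfrsf1b (−0.143 to 0.24) and Foxp3 (−0.146 to 0.238).

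No paired analysis was possible because replicates are numbered 1 to 4 in R26-WT and 5 to 10 in R26-TIR1(F74G). With 4 and 6 libraries, genes with few counts have wide intervals, as for Tnfrsf8 and Cd40, and a gene that was not called is not shown to be unchanged.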
